A study of Mus musculus with 8 samples.

Results

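The protocadherins, the largest subfamily of the cadherin superfamily of cell adhesion proteins, were examined in the amygdala of mice that drank aspartame. Every gene of the expression table whose symbol starts with Pcdh was taken, which gave 70 of the 24982 rows. Of these, 58 belong to the clustered protocadherins (14 alpha, 22 beta and 22 gamma genes) and 12 are nonclustered genes spread over the genome. Members whose values vary and average at least 3 over all libraries were tested, which left 56 of 70: 4 alpha, 20 beta, 21 gamma and 11 nonclustered genes. Another 11 members averaged under 3 (Pcdha1, Pcdha2, Pcdha3, Pcdha8, Pcdha10, Pcdha11, Pcdhac1, Pcdhb1, Pcdhb4, Pcdhgb8 and Pcdh12), and 3 alpha genes (Pcdha4, Pcdha6 and Pcdha7) are listed at 0 in every library.

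RNA was sequenced from the amygdala of 8 adult male C57BL/6 mice, with 1 library per mouse. Mice of the aspartame group (n = 4) drank water with 0.03% aspartame, a sweetener, and mice of the plain water group (n = 4) drank plain water. The labels give 18 wk of exposure and ages of 187 to 189 d, whereas the methods of the study give a shorter exposure. The mice of both groups were bought from 1 supplier, and neither group carried a genetic change. The study asked how aspartame affects gene expression in this part of the brain, which regulates anxiety, and left out 1 aspartame sample after principal component analysis without naming it.

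The values are regularized log2 values (rlog), that is, log2 counts scaled for library size in which weakly counted genes are drawn toward their own mean. A difference of 1 is a 2-fold difference, and differences of weak genes are understated. Differences are given as aspartame minus plain water. Aspartame 2 stood apart from the other libraries. It lay at 27.6 on the first principal component (55.77% of the variance) against -24.0 (aspartame 4) to 10.3 for the other 7 libraries. Its correlations with them were 0.971 to 0.994, against 0.984 to 0.997 among the others. Comparisons with and without aspartame 2 were set with the choice of members. The comparison given first uses aspartame 1, 3 and 4 against plain water 1 to 4 (7 libraries), and the values over all 8 libraries are given beside it. The 7-library p-values do not include the spread that aspartame 2 adds to its group. A gene is called changed where its adjusted p (limma, Benjamini-Hochberg over the 12861 genes tested) is under 0.05. Markers of neurons, astrocytes, oligodendrocytes and microglia were present in all libraries, and no marker particular to the amygdala was examined. The values are not counts, so the depth of the libraries is unknown. In tissue RNA, fewer cells of a type and less RNA per cell cannot be told apart.

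Protocadherins are membrane proteins with extracellular cadherin repeats that bind the same protein on a neighboring cell. In the clusters, each neuron switches on its own small set of promoters, a choice that depends on CTCF, cohesin and DNA methylation, and the resulting protein combination lets a neuron tell its own branches from those of others. An alpha or gamma transcript joins 1 variable exon, which encodes the outer part of the protein, to constant exons shared by the whole cluster, whereas a beta gene is a single exon with no constant part. The last variable exons of the alpha and gamma clusters encode the C-type proteins, which are expressed more broadly than the others. Nonclustered protocadherins have their own promoters, and many act in axon growth, synapse formation and circuit assembly.

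Promoters are shown for Pcdh17, Pcdh19 and Pcdh20, since these 3 nonclustered genes shared their lowest library in each group. In each of the 3, plain water 2 was the lowest of all 8 libraries and aspartame 1 the lowest of the aspartame libraries. The order of the other libraries differed between these genes. They were chosen after their values were seen. Pcdhb5 of the beta cluster had the same lowest libraries, and plain water 2 was also the lowest library for Pcdh8 and Pcdh18. This makes 5 of the 11 nonclustered genes tested, and it was the lowest library for 5 of the 45 clustered genes as well. The share over all genes was not counted. Each runs from 250 bases before to 50 after the start site (RefSeq, GRCm38.p6), 5′ to 3′ on the strand of the gene: chr14:84443313-84443612 (plus) for Pcdh17, chrX:133688944-133689243 (minus) for Pcdh19 and chr14:88471347-88471646 (minus) for Pcdh20. Capitals mark the GC box GGGCGG, read on either strand.
Pcdh17: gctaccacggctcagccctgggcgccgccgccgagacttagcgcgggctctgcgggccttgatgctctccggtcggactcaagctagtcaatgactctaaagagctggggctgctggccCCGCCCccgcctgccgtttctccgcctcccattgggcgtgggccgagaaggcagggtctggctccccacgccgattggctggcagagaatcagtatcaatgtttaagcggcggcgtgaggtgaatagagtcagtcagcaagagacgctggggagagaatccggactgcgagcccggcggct
Pcdh19: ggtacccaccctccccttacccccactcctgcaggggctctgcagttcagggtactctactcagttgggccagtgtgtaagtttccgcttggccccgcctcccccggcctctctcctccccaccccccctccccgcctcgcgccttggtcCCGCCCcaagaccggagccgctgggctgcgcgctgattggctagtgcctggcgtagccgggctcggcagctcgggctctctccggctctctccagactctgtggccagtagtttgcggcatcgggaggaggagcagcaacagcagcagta
Pcdh20: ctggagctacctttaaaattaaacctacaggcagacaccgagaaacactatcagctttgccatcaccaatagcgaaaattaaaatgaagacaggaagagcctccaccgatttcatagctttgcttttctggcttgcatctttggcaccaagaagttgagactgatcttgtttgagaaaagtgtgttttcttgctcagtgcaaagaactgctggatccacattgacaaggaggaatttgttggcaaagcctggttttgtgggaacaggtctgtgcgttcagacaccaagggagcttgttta
Pcdh17 and Pcdh19 each had 1 GC box and Pcdh20 had none, and TATAAA, searched on both strands, occurred in none of the 3. Their GC contents were 65.0%, 67.7% and 43.7%. A GC box occurred in 35.7% of the 32851 promoters of this length in the table and TATAAA in 13.6%. Of the 10 promoters of 9 nonclustered protocadherins in the table, 4 had a GC box and 2 had TATAAA.

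The clusters lie next to each other on chromosome 18 (GRCm38.p6, RefSeq), the alpha cluster at 36930285 to 37188897, the beta cluster at 37264998 to 37521419 and the gamma cluster at 37661775 to 37841873. Pcdh1 and Pcdh12 are farther along the same chromosome. Pcdh10 and Pcdh18 are on chromosome 3, Pcdh7 is on 5, Pcdh15 on 10, Pcdh8, Pcdh17, Pcdh20 and Pcdh9 on 14, and Pcdh11x and Pcdh19 on X. Alpha and gamma transcripts share their 3′ exons and beta genes are similar copies, so reads from these parts can be split among members, and the values of single clustered genes are uncertain to that extent.

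The level of each member was compared per transcript length, as mean rlog over all 8 libraries minus log2 of the longest transcript in kilobases. On this scale the nonclustered genes were the highest class, led by Pcdh9 at 6.49, Pcdh10 at 6.39 and Pcdh7 at 6.28. The lowest nonclustered genes were Pcdh11x at 3.62, Pcdh18 at 3.04 and Pcdh12, a protocadherin of vascular endothelium, at -2.13. In the gamma cluster the C-type genes Pcdhgc5 at 5.67 and Pcdhgc3 at 5.20 stood above the A and B types, which ranged up to 3.70 (Pcdhga11), and the C-type gene Pcdhgc4 was at 2.39. In the alpha cluster the C-type gene Pcdhac2 was at 4.00, whereas the highest of the other alpha genes was Pcdha5 at 1.31. Beta genes ranged from -2.38 for Pcdhb1 to 4.27 for Pcdhb9. The minimum mean rlog of 3 left out Pcdhac1 with a mean rlog of 2.81 and Pcdhb4 with 2.80, and kept Pcdhb6 with 3.03 and Pcdhb2 with 3.10. The plot of levels per length shows the clusters in gene order.

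**Figure D1:**
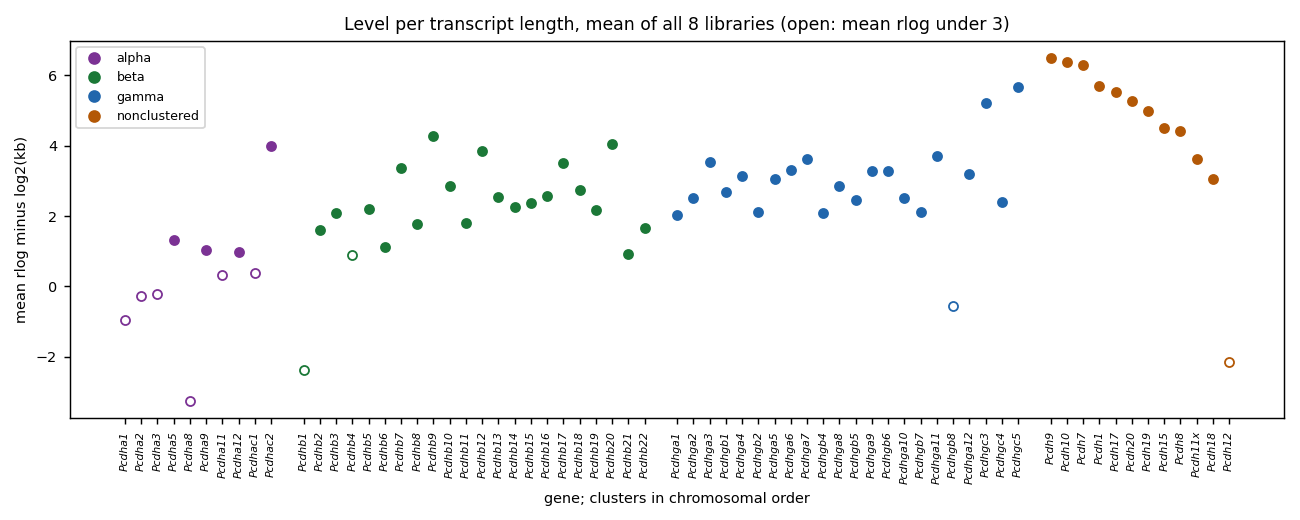
Level per transcript length (mean rlog of all 8 libraries minus log2 kilobases, vertical axis) of the varying protocadherins with a transcript length, the clusters in chromosomal order and the nonclustered genes from high to low. Filled circles are the genes tested and open circles those with a mean rlog under 3; Pcdhac2, Pcdhgc3 and Pcdhgc5 stand above the rest of their clusters.

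With aspartame, few protocadherins were called changed. Over the 7 libraries, 2 of the 56 members (3.57%) were called, Pcdh1 and Pcdhgc3, both higher with aspartame, whereas 8.83% of all genes tested were called, 6.11% higher and 2.72% lower. No member was called lower. At an unadjusted p under 0.05 there were 5 members (8.93%), against 27.1% of all genes. In 5 members (8.93%) every aspartame value lay on 1 side of every plain water value, against 23.0% of all genes. Pcdh1, Pcdha12 and Pcdhgc3 lay above (10.9% of all genes) and Pcdh11x and Pcdh7 below (12.0% of all genes). The median size of the difference, regardless of sign, was 0.068 over the members and 0.12 over all genes, and the difference was larger than 0.2 in 7 of the 56 members and in 3784 of the 12861 genes. The members were weaker, with a median mean rlog of 5.21 against 6.70 over all genes, and rlog understates differences of weak genes. None of these shares was taken over genes of like level. The signs were nearly balanced, with 29 of 56 members (51.8%) above 0 and 49.1% of all genes. Over all 8 libraries, none of the members and 0% of all genes were called, and 1 member (Pcdh17) had an unadjusted p under 0.05, against 4.30% of all genes. No member then had groups that did not overlap, against 3.37% of all genes (0.995% higher and 2.37% lower), and 33 of 56 members (58.9%) were above 0, against 51.2% of all genes.

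The spread of the clustered genes was like that of other genes of their level. Among genes with a mean rlog from 4 to under 6, the median SD within groups was 0.127 for 33 clustered members and 0.127 for 3600 genes. The 95% interval of a member's difference, not adjusted for the number of genes, extended 0.20 to either side in the median member. Differences below about that size could not be told from 0 with these libraries. A call needs an adjusted p under 0.05, and larger differences also went uncalled, such as 0.31 in Pcdhga7 and Pcdhga12.

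**Figure D2:**
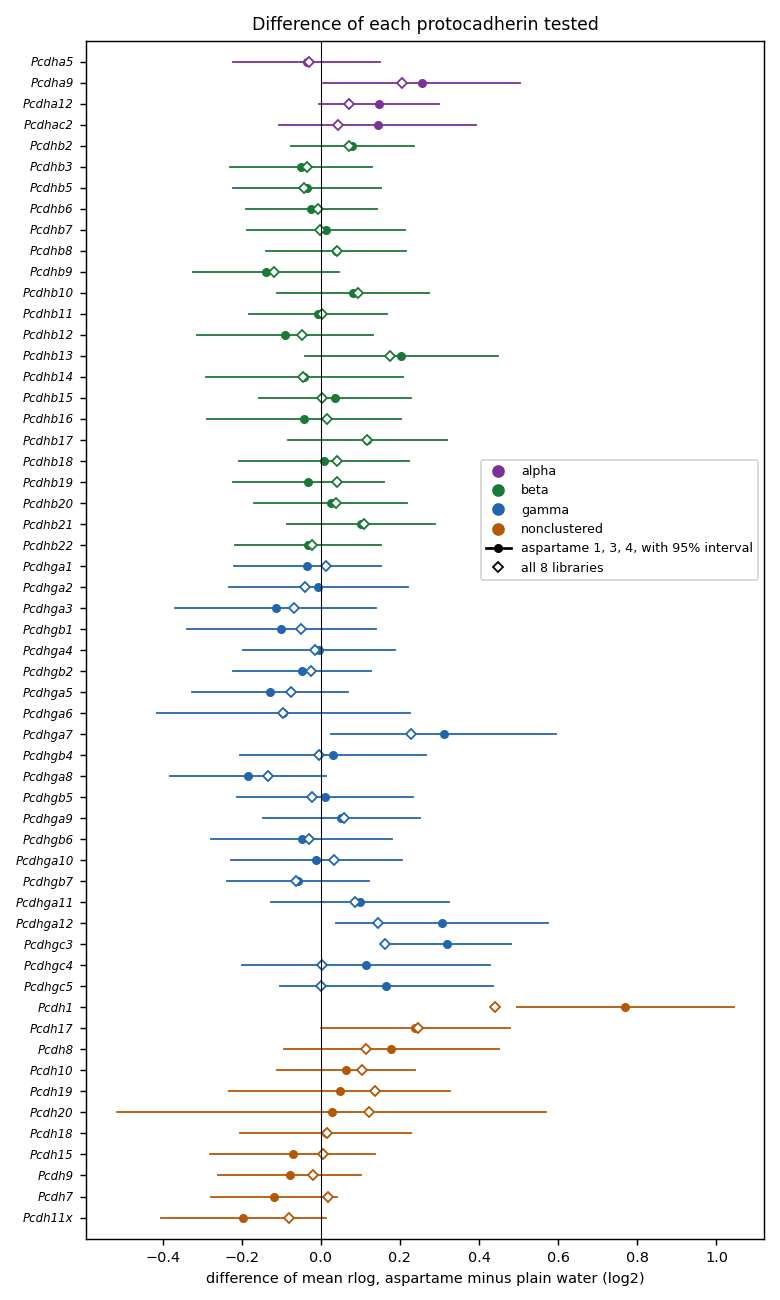
Difference of mean rlog, aspartame minus plain water (log2, horizontal axis), of the 56 protocadherins tested, colored by class. Circles with bars are the values and 95% intervals over 7 libraries (aspartame 1, 3 and 4) and open diamonds the values over all 8; Pcdh1 (0.77) lies farthest from 0, and its value over all 8 libraries is 0.44.

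Pcdh1, a nonclustered protocadherin known in epithelia as well as in brain, showed the largest difference of the family. Its rlog values were 8.38, 8.64 and 9.01 in aspartame 1, 3 and 4 and 7.36 in aspartame 2, against 8.00, 7.88, 7.80 and 7.96 in plain water 1 to 4. The 3 aspartame libraries lay above all plain water libraries, and aspartame 2 lay below all of them. Over 7 libraries the means were 8.68 ± 0.32 (SD, n = 3) with aspartame and 7.91 ± 0.089 (SD, n = 4) with plain water, a difference of 0.77 (SE 0.13, limma, adjusted p = 0.010), or 1.70-fold. Over all 8 libraries the difference was 0.44 (SE 0.27, adjusted p = 0.90). Pcdh1 stayed called when any 1 of the 7 libraries was left out, with adjusted p from 0.0061 to 0.044.

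The libraries also differed in how GC-rich transcripts were represented. The median deviation of the tenth of genes highest in GC minus that of the tenth lowest was 0.38, -0.65, 0.044 and 0.47 in aspartame 1 to 4, and 0.19, -0.13, -0.21 and -0.12 in plain water 1 to 4. The longest Pcdh1 transcript is 60.7% GC, the highest of the nonclustered members, against a median of 49.4% over all genes. After a smooth trend with GC content and length was removed within each library, the difference of Pcdh1 was 0.39 (adjusted p = 0.076) over 7 libraries and 0.23 (adjusted p = 0.71) over 8. The calls over all genes then fell to 257 of 12778. In the 7-library comparison the aspartame values of this GC measure, 0.38, 0.044 and 0.47, were all positive. Those of plain water were negative apart from 0.19 in plain water 1. The GC measure thus went partly with the group, and removing the trend can also remove part of a group difference. This holds for every 7-library value with the trend removed. The size of that part was not tested.

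**Figure D3:**
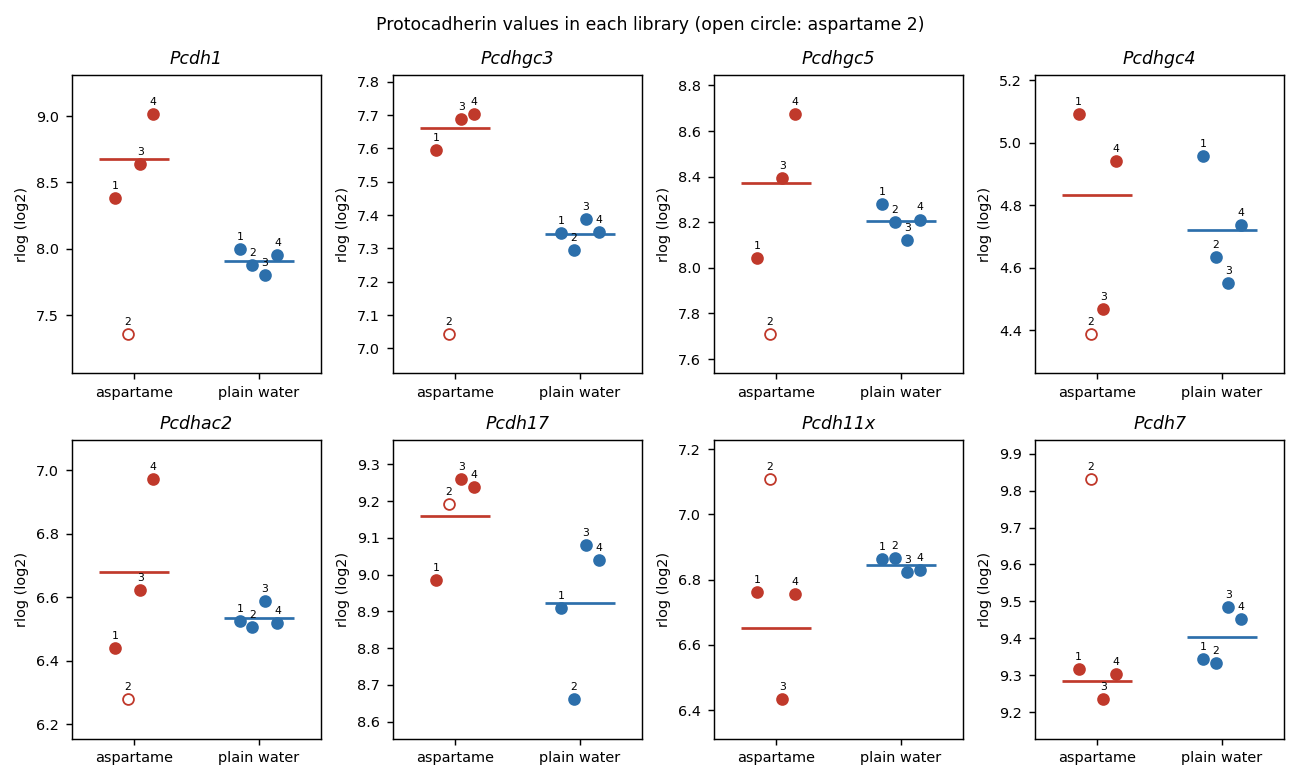
rlog (log2, vertical axis) in each library for 8 protocadherins, aspartame at left and plain water at right; numbers are the replicate, the open circle is aspartame 2, and lines are the means of aspartame 1, 3 and 4 and of plain water. Aspartame 2 lies below every plain water library for Pcdh1 and the C-type genes Pcdhgc3, Pcdhgc5, Pcdhgc4 and Pcdhac2, and above every one for Pcdh17, Pcdh11x and Pcdh7.

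Of the C-type genes, 4 of 5 were tested, and all 4 had differences above 0 over 7 libraries (median 0.15), with 1 call, although Pcdhgc4 (-0.057) and Pcdhgc5 (-0.033) were below 0 once the GC and length trend was removed. Pcdhac2 was at -0.0030 without aspartame 4 and Pcdhgc4 at -0.015 without aspartame 1. Pcdhgc3, which promotes dendrite branching in mouse cortical neurons through Axin1, had 7.60, 7.69 and 7.70 in aspartame 1, 3 and 4 and 7.04 in aspartame 2, against 7.35, 7.29, 7.39 and 7.35 in plain water 1 to 4. The 3 aspartame libraries again lay above all plain water libraries and aspartame 2 below all. The means were 7.66 ± 0.057 (SD, n = 3) and 7.34 ± 0.038 (SD, n = 4), a difference of 0.32 (SE 0.074, limma, adjusted p = 0.027), or 1.25-fold. This was the smallest spread of the called members. Over all 8 libraries the difference was 0.16 (adjusted p = 0.90), and with the GC and length trend removed it was 0.12 (adjusted p = 0.38). The call was also lost when plain water 2, 3 or 4 or aspartame 4 was left out, with adjusted p of 0.078, 0.082, 0.096 and 0.074.

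Pcdhgc5, which binds GABA-A receptor subunits in rat neurons, had 8.04, 8.39 and 8.67 in aspartame 1, 3 and 4 and 7.71 in aspartame 2, against 8.28, 8.20, 8.12 and 8.21 in plain water. The aspartame libraries lay on both sides of the plain water libraries, and the difference of 0.17 (SE 0.12, adjusted p = 0.41) did not pass. It was 0.33 (adjusted p = 0.070) without aspartame 1 and 0.014 (adjusted p = 0.96) without aspartame 4. Pcdhgc4, which is needed for the survival of interneurons in mice, had 5.09, 4.47 and 4.94 in aspartame 1, 3 and 4 and 4.39 in aspartame 2, against 4.96, 4.63, 4.55 and 4.74 in plain water (difference 0.11, adjusted p = 0.65). Pcdhac2, which serotonergic axons need for their even spacing in mice, had 6.44, 6.62 and 6.97 in aspartame 1, 3 and 4 and 6.28 in aspartame 2, against 6.53, 6.51, 6.59 and 6.52 in plain water (difference 0.14, adjusted p = 0.45). All 4 C-type genes tested had their lowest value of the 8 libraries in aspartame 2, from 0.26 to 0.49 below the plain water mean. This held for 2 of the other 41 clustered genes tested, Pcdha12 and Pcdhga12, and the share over all genes was not counted. Pcdhac1, the C-type gene under the filter, had 2.76, 2.97 and 2.69 in aspartame 1, 3 and 4 and 2.75 in aspartame 2. It had 2.77, 2.79, 2.91 and 2.83 in plain water, so its lowest value was in aspartame 4. Over all 8 libraries the differences of the 4 C-type genes tested were between 0.0010 and 0.16, with none called.

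The other alpha genes were weak. Pcdha9 had 3.31, 3.91 and 3.55 in aspartame 1, 3 and 4 and 3.39 in aspartame 2, against 3.36, 3.38, 3.28 and 3.33 in plain water. Aspartame 3 was well above the rest, and aspartame 1 lay inside the plain water range. The difference was 0.25 (SE 0.11, adjusted p = 0.18), and was 0.39 (adjusted p = 0.046) without aspartame 1 and 0.097 (adjusted p = 0.46) without aspartame 3. Pcdha12 had 3.50, 3.42 and 3.57 in aspartame 1, 3 and 4 and 3.20 in aspartame 2, against 3.28, 3.41, 3.35 and 3.36 in plain water. Its 7-library groups did not overlap, and the difference was 0.15 (adjusted p = 0.20). Pcdha5 differed by -0.036 (adjusted p = 0.82). The median of the alpha cluster was 0.14 over 7 libraries, 0.053 without aspartame 4 and 0.058 over all 8, against medians over all genes of -0.0043 over 7 libraries and 0.0033 over 8.

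The beta cluster was centered on no difference, with 10 genes above and 10 below 0 and a median of -2.2e-05 over 7 libraries and 0.0092 over 8. Pcdhb13 had the largest difference, with 4.62, 4.49 and 4.57 in aspartame 1, 3 and 4 and 4.45 in aspartame 2, against 4.03, 4.46, 4.49 and 4.44 in plain water 1 to 4. Plain water 1 was the lowest library by far, and the difference of 0.20 (adjusted p = 0.27) was 0.095 when that library was left out. Pcdhb9, the beta gene with the highest mean rlog, had 5.82, 5.84 and 5.76 in aspartame 1, 3 and 4 and 5.89 in aspartame 2, against 5.83, 5.95, 5.99 and 6.01 in plain water (difference -0.14, adjusted p = 0.32). Pcdhb17 differed by 0.12 (adjusted p = 0.44), and Pcdhb6, the beta gene with the lowest mean tested, by -0.024 (adjusted p = 0.87). The beta differences ranged from -0.14 to 0.20, and no beta gene had a 7-library unadjusted p under 0.05.

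Of the 18 gamma A and B genes, 6 were above and 12 below 0, with a median of -0.023. Pcdhga7 had 5.97, 5.83 and 6.40 in aspartame 1, 3 and 4 and 5.74 in aspartame 2, against 5.68, 5.63, 5.88 and 5.83 in plain water. Aspartame 4 was far above the rest, and the other aspartame libraries lay in or just above the plain water range. The difference was 0.31 (SE 0.13, adjusted p = 0.15), and was 0.43 (adjusted p = 0.043) without aspartame 3 and 0.14 (adjusted p = 0.47) without aspartame 4. Pcdhga12 had 5.58, 5.66 and 6.09 in aspartame 1, 3 and 4 and 5.13 in aspartame 2, against 5.48, 5.62, 5.40 and 5.40 in plain water (difference 0.31, SE 0.12, adjusted p = 0.14). Aspartame 4 was the highest library and aspartame 2 the lowest, and the difference was 0.15 (adjusted p = 0.42) without aspartame 4. Pcdhga8 had the most negative difference, -0.18 (adjusted p = 0.21), and Pcdhga1, the gamma gene with the lowest mean tested, differed by -0.035 (adjusted p = 0.83). The median of the whole gamma cluster was -0.0066 over 7 libraries and -0.014 over 8.

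**Figure D4:**
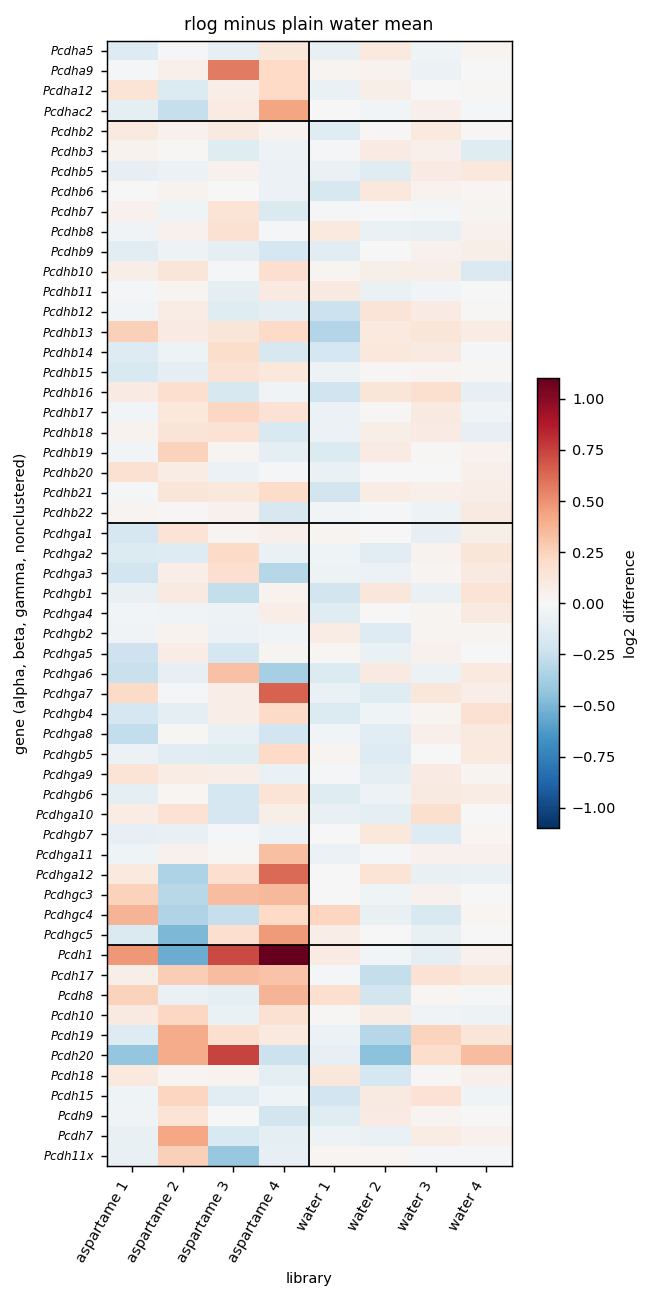
rlog minus the plain water mean of each gene (color, log2) for the 56 protocadherins tested, in rows by class, with the aspartame libraries in the left columns and the plain water libraries in the right. The Pcdh1 row lies above the plain water mean in aspartame 1, 3 and 4 and 0.55 below it in aspartame 2, and most beta rows are pale.

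Among the other nonclustered genes, those related to Pcdh1 by their cytoplasmic domain (the delta-1 subgroup of Pcdh1, Pcdh7, Pcdh9 and Pcdh11x) did not share its direction. Pcdh7, which acts at neuronal contacts, had 9.32, 9.24 and 9.30 in aspartame 1, 3 and 4 and 9.83 in aspartame 2, against 9.34, 9.33, 9.49 and 9.45 in plain water. The 3 aspartame libraries lay just below plain water and aspartame 2 above it, and the difference was -0.12 (adjusted p = 0.33) over 7 libraries and 0.018 (adjusted p = 0.98) over 8. Pcdh11x, an X-linked gene of the developing and adult brain, had 6.76, 6.43 and 6.75 in aspartame 1, 3 and 4 and 7.11 in aspartame 2, against 6.86, 6.87, 6.82 and 6.83 in plain water. Its difference was -0.20 (SE 0.095, adjusted p = 0.21) over 7 libraries and -0.081 (adjusted p = 0.94) over 8. Pcdh9 differed by -0.079 (adjusted p = 0.58).

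The delta-2 genes (Pcdh8, Pcdh10, Pcdh17, Pcdh18 and Pcdh19), several of which recruit the actin-regulating WAVE complex, were all above 0 over 7 libraries and none was called. After removal of the GC and length trend Pcdh8 (-0.14) and Pcdh19 (-0.067) were below 0, and without plain water 2 Pcdh18 (-0.052) and Pcdh19 (-0.057) were. Pcdh17, which organizes presynaptic terminals in circuits between cortex and basal ganglia of mice, had 8.99, 9.26 and 9.24 in aspartame 1, 3 and 4 and 9.19 in aspartame 2, against 8.91, 8.66, 9.08 and 9.04 in plain water. Aspartame 2, 3 and 4 lay above all plain water libraries and aspartame 1 inside their range. The difference was 0.24 (SE 0.11, adjusted p = 0.19) over 7 libraries and 0.25 (SE 0.11, adjusted p = 0.90) over 8, and 0.15 without plain water 2 in the 7-library comparison. Pcdh8, which is induced by neuronal activity and signals through Taok2, had 6.80, 6.45 and 6.92 in aspartame 1, 3 and 4 and 6.47 in aspartame 2, against 6.73, 6.35, 6.57 and 6.54 in plain water. The groups overlapped, and the difference was 0.18 (adjusted p = 0.38). Pcdh10, which takes part in synapse elimination, differed by 0.064 (adjusted p = 0.65), and Pcdh18 by 0.012 (adjusted p = 0.95).

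Pcdh19, an X-linked partner of N-cadherin, had 8.14, 8.46 and 8.39 in aspartame 1, 3 and 4 and 8.69 in aspartame 2, against 8.22, 7.97, 8.53 and 8.42 in plain water 1 to 4 (difference 0.047, adjusted p = 0.84). Pcdh20 had 7.18, 8.35 and 7.37 in aspartame 1, 3 and 4 and 8.01 in aspartame 2, against 7.52, 7.16, 7.80 and 7.95 in plain water 1 to 4. It spread over 1.19 across the libraries, second to Pcdh1 at 1.66, with wide overlap between the groups (difference 0.028, SE 0.25, adjusted p = 0.96). Pcdh17, Pcdh19 and Pcdh20, whose promoters are printed above, were among the 10 members lowest in plain water 2. A link of these low values with promoter sequence was not tested. Pcdh15, a component of the hair cell tip link that is also expressed in brain, differed by -0.072 (adjusted p = 0.67). The median of the nonclustered genes was 0.028 over 7 libraries and 0.10 over 8.

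The difference between 7 and 8 libraries came from aspartame 2, in which the classes diverged. In that library 9 of 11 nonclustered genes were above their plain water mean (median 0.24), against 6440 of the 12861 genes tested. Pcdh1 and Pcdh8 were the 2 below. In 6 nonclustered genes (Pcdh7, Pcdh9, Pcdh10, Pcdh11x, Pcdh15 and Pcdh19) the highest value of all 8 libraries was in aspartame 2. The share of all genes with their highest or lowest value in this library was not counted. The alpha median was -0.082, the beta median 0.048, the gamma median -0.019 and the C-type median -0.32 in aspartame 2, against 0.00051 over all genes. In aspartame 1, 3 and 4 the nonclustered medians were -0.042, 0.0053 and -0.044, and the C-type medians 0.079, 0.14 and 0.40. The classes thus also lay apart in aspartame 4, where the alpha median was 0.22. Pcdh1 and Pcdh8 are also the tested nonclustered members highest in GC (60.7% and 59.3%), and the other nonclustered members tested range from 36.3% in Pcdh11x to 47.8% in Pcdh19.

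**Figure D5:**
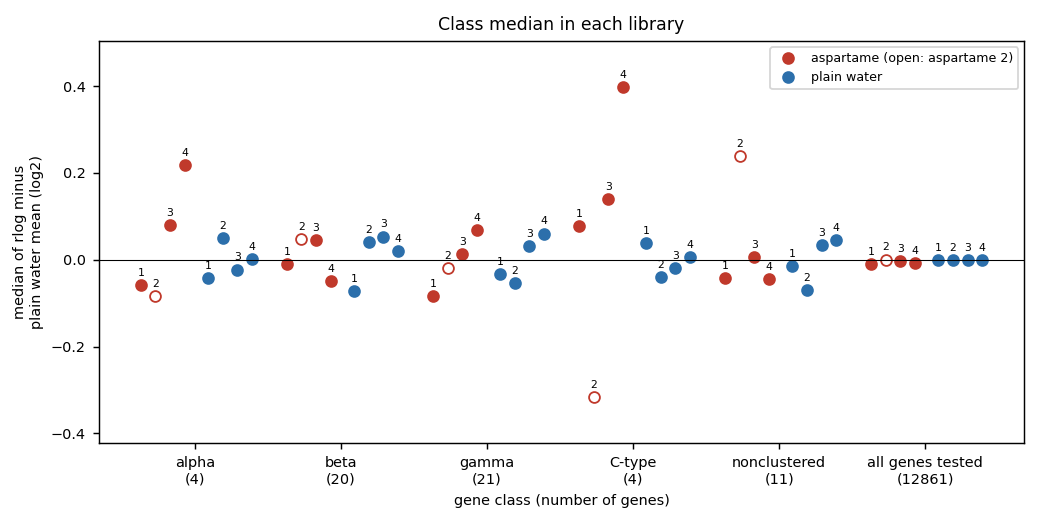
Median over the genes of a class of rlog minus the plain water mean (log2, vertical axis) in each library, aspartame at left and plain water at right within each class; numbers are the replicate and the open circle is aspartame 2. In aspartame 2 the C-type median is -0.32 and the nonclustered median 0.24, while the beta and gamma medians stay within 0.10 of 0 in every library.

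Genes that act on or with protocadherins were counted in lists, to be read beside the 6.11% of all genes called higher and their median of -0.0043. Of 23 tested genes for promoter choice and chromatin, 3 were called higher over 7 libraries and none lower, and the list's median was 0.052. These were the DNA methyltransferase Dnmt3a (0.45, adjusted p = 0.011), the zinc finger protein Wiz (0.55, adjusted p = 0.026) and the methylcytosine dioxygenase Tet3 (0.39, adjusted p = 0.033). Ctcf, the factor that loops cluster promoters to their enhancer, differed by -0.11 (adjusted p = 0.33), and the cohesin subunit Rad21 by -0.14 (adjusted p = 0.29). Of 20 cytoplasmic partners, 2 were called higher and none lower (median -0.014): the kinase Taok2, a partner of Pcdh8 (0.39, adjusted p = 0.016), and neuroligin Nlgn2, which gamma protocadherins bind (0.45, adjusted p = 0.037). Axin1 differed by 0.19 (adjusted p = 0.24). Over all 8 libraries none of these genes was called. With the GC and length trend removed the calls of both lists were lost, at 0.27 for Dnmt3a (adjusted p = 0.070), 0.25 for Wiz (adjusted p = 0.16), 0.13 for Tet3 (adjusted p = 0.37), 0.12 for Taok2 (adjusted p = 0.22) and 0.066 for Nlgn2 (adjusted p = 0.60).

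Of 31 tested members of the rest of the cadherin superfamily, 4 were called higher and none lower over 7 libraries (median 0.095). Over all genes 6.11% were called higher and 2.72% lower. Celsr2, a seven-pass cadherin of planar cell polarity, had 9.25, 9.26 and 9.64 in aspartame 1, 3 and 4 and 8.20 in aspartame 2, against 8.73, 8.50, 8.53 and 8.55 in plain water, a difference of 0.81 (adjusted p = 0.0079). As for Pcdh1, aspartame 1, 3 and 4 lay above all plain water libraries and aspartame 2 below all. Celsr3 (0.72, adjusted p = 0.010) and the calsyntenins Clstn1 (0.44, adjusted p = 0.034) and Clstn3 (0.44, adjusted p = 0.031) were the others. After the GC and length trend was removed over 7 libraries, 257 of 12778 genes were called. Celsr2 then stayed called (0.38, adjusted p = 0.031), whereas Celsr3 (0.31, adjusted p = 0.060), Clstn1 (0.18, adjusted p = 0.18) and Clstn3 (0.23, adjusted p = 0.12) did not. Over all 8 libraries none of this list was called, with Celsr2 at 0.51 (adjusted p = 0.90), and with the trend also removed 0 of 12778 genes were.

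Of the 28 cell type markers tested, 3 (10.7%) were called over 7 libraries, against 8.83% of all genes, and 0 with the GC and length trend removed. Of the 7 neuronal markers 1 was called, Rbfox3 (0.37, adjusted p = 0.037), of the 5 oligodendrocyte markers 1, Mbp (0.62, adjusted p = 0.040), and of the 2 precursor markers 1, Cspg4 (0.48, adjusted p = 0.017). With the trend removed Rbfox3 was at 0.13 (adjusted p = 0.35), Mbp at 0.57 (adjusted p = 0.088) and Cspg4 at 0.072 (adjusted p = 0.60). Other markers of the same lists were below 0, such as the precursor marker Pdgfra (-0.18, adjusted p = 0.13) and the neuronal markers Slc17a6 (-0.26, adjusted p = 0.40) and Syt1 (-0.10, adjusted p = 0.52). None of the 5 astrocyte, 4 microglial, 3 endothelial and 2 choroid plexus markers tested was called. The summed level (2 to the power of rlog) of the neuronal markers ranged from 18320 to 20590 in aspartame 1, 3 and 4 and was 18900 in aspartame 2, against 17030 to 19350 in plain water. That of the oligodendrocyte markers ranged from 5024 to 8517 in aspartame 1, 3 and 4 and was 4351 in aspartame 2, against 4483 to 5745 in plain water. Summed astrocyte markers ranged from 6829 to 7389 in aspartame 1, 3 and 4 and were 7673 in aspartame 2, against 6297 to 7572 in plain water. Ttr, a transcript of the choroid plexus, was at 10.2 in plain water 1 and between 5.96 and 6.93 in the other libraries. Without plain water 1 the differences were 0.80 for Pcdh1 (adjusted p = 0.015) and 0.32 for Pcdhgc3 (adjusted p = 0.037). The part of the other marker differences in the values of Pcdh1 and the C-type genes was not tested.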

How the data were processed

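The deposited table holds log2 values for 8 libraries, taken as rlog values because the table is named so. Per the methods, the authors sequenced stranded mRNA libraries as paired reads, aligned them with STAR to mm10, counted reads per gene with Salmon and used DESeq2. Versions of STAR, Salmon and DESeq2, the options of the transformation and the libraries that entered it are not given in the sources used here. Of 24982 rows, 6350 are constant at 0 in every library. Depth is unknown, so no counting interval could be given.

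Genes that vary with a mean of at least 3 over all 8 libraries (12861) were fitted with limma 3.58.1 in R 4.3.3, with empirical Bayes moderation and a mean-variance trend. The Benjamini-Hochberg adjustment ran over all of them. The test was tried on simulated data. Groups come from the labels. Each mouse is 1 library, so p-values measure the spread between mice. Members and lists were chosen with earlier results of these data known, and the lists were written from general knowledge. Members named are those called, the 3 with the smallest p and those with the highest and lowest mean in each class, the C-type genes and every nonclustered gene tested, plus genes of the lists that were called. Pcdha5, Pcdhga8, Ctcf, Rad21, Axin1, Pdgfra, Slc17a6, Syt1, Pcdhb5 and the genes named for their level were chosen after their values were seen.

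Alternatives were all 8 libraries, each of 7 left out, no filter or a minimum mean of 5, no trend, robust moderation, a common median, quantile normalization, library weights, the replicate number as a block, age, and removal of a trend with GC content and length (natural splines, 5 degrees of freedom each). GC content and lengths are of the longest transcript of GENCODE M21 (99.4% of the genes tested, and all 56 members). Coordinates and promoters are from RefSeq GRCm38.p6. Python 3.11.15, numpy 2.4.6, pandas 2.3.3 and matplotlib 3.10.9 were used. Promoters of the clustered genes were not used here. Reads were not analysed here.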

Additional observations from a re-analysis of the deposited data

Results flagged for a closer look

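In 3 of 58 groups of 4 libraries tested, a single library lay far from the other 3, by a rule that chance meets in about 1 of 20 groups, so the number of such groups is about what chance gives. Pcdh7 had 9.83 in aspartame 2, above the other aspartame libraries. Pcdhgc3 had 7.04 in aspartame 2, below the other aspartame libraries. Pcdhb13 had 4.03 in plain water 1, below the other plain water libraries. Without plain water 1 the difference of Pcdhb13 was 0.095. The first 2 are the same library that stood apart over all genes.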

How the results depend on the processing

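The 2 members called higher (Pcdh1 and Pcdhgc3) became 0 over all 8 libraries, with or without the replicate block, and 0 when the GC and length trend was removed over 7 libraries, with or without the block, or over 8. They became 1, Pcdh1, with library weights on all 8 libraries or with age as a covariate, and 1 to 3 when 1 of 7 libraries was left out. No member was called lower under any of the 21 alternatives. Pcdh1 was called in 16 of the 21 and Pcdhgc3 in 9. Filters, moderation and scaling kept both calls.

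The labels number the mice 1 to 4 in both groups but do not say that a number marks a pair. The numbers were therefore not taken as pairs. The deviations of same-numbered libraries correlated at 0.28, 0.31 and -0.013 over 7 libraries, and those of different-numbered libraries at -0.44 to 0.26. These values do not settle whether the numbers mark pairs, so the block is given as an alternative. With the replicate number as a block (plain water 2 dropped) 1 member was called, Pcdh1 (adjusted p = 0.0015), with Pcdhgc3 at an adjusted p of 0.050, and the median of the nonclustered genes was -0.047. With the block over all 8 libraries that median was 0.10. With the block and the trend removed, the medians were 0.072 for beta, -0.11 for gamma and -0.071 for nonclustered genes.

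Without the block, the median of the nonclustered genes was 0.10 over all 8 libraries, -0.021 with library weights, -0.031 with age, -0.061 with the trend removed, and -0.047 to 0.050 with 1 library left out. It lies too close to 0 to carry a direction. With the trend removed the beta median was 0.070 and the gamma median -0.11, and over all 8 libraries the gamma median was -0.077 and the alpha median 0.025. The cause was not tested. With 7 libraries and unknown depth, differences under about 0.20 could not be told from 0 in the median member. Larger ones also went uncalled, such as 0.31 in Pcdhga7 and Pcdhga12, so a missing call does not exclude them.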
